A study of Mus musculus with 6 samples.

Results

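Isolated m6A regions were short segments of mouse brain RNA that were enriched by an m6A antibody in every IP library and stood far from any other enriched segment. Merging peaks of the 3 peak lists wherever they overlapped by 1 base or more gave 43377 regions. A region was taken as isolated if it lay on an autosome, held a peak of each list, was under 400 bases long, had a pileup above 10 tags in at least 1 list, and had no other region of any list within 50000 bases on either side. There were 707 such regions, 1.63% of all regions and 4.32% of the 16348 autosomal regions found in all 3 lists. The comparison set was the 15498 autosomal regions of all 3 lists that had a neighbour within 50000 bases, and the 13211 of these that also met the limits on length and pileup are called neighboured regions within the same limits.

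The samples were 3 m6A IP libraries and 3 input libraries of polyadenylated RNA from whole brain, the input made without antibody. Each list came from 1 IP library set against 1 input. The labels gave tissue and antibody but no strain, genotype, age or sex, the runs are named M14ctl in the file headers without an explanation, and nothing in them ties each replicate to its own animal. The spread over lists may therefore be technical. After removal of duplicates the IP libraries kept 5676427, 6493926 and 6327958 tags and the inputs 7436658, 11589632 and 7185922. The lists hold 32858, 32671 and 24686 peaks on the mm9 genome without gene names or strand. Genes, exons, UTRs and sequences at these positions were not analysed here, and the tissue could not be checked against marker genes.

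N6-methyladenosine (m6A) is a methyl mark on adenosines within the messenger RNA chain. It is written by a complex around METTL3 and METTL14, removed by the demethylases FTO and ALKBH5 and read by proteins of the YTH family, which influence the splicing, translation and decay of the transcript. In mammalian transcripts the mark is known for its concentration in long internal exons and near stop codons, so that one methylated transcript often gives several enriched segments close together. The brain is known as a tissue rich in m6A, and a segment that stands alone over a long stretch of genome is the less usual arrangement.

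The members were chosen by measured values of these same lists: the positions, lengths and pileups of the peaks. The pileup is the number of IP tags over the summit, the highest base of the peak. The fold enrichment, the authors' own ratio, sets the pileup plus 1 against the local input background plus 1, so fold, background and q-value belong to the same contrast as the rule. They are described below without a test. The spread given is the SD over the 3 lists.

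Isolated regions had a higher fold and a lower input background than regions with a neighbour, and a slightly lower pileup, in each of the 3 lists. In m6A IP 1, 2 and 3 the isolated regions reached a median fold of 5.91, 5.69 and 5.08, against 5.10, 4.84 and 4.46 in neighboured regions within the same limits. The medians differed by 0.760 ± 0.117 (SD, n = 3), and by 0.665 ± 0.153 when all neighboured regions were used. Every list gave the same direction. The median pileup of isolated regions was 22, 22 and 19 tags, against 24, 25 and 22. The pileup medians differed by -2.67 ± 0.577 tags, with isolated regions lower in each list. The pileup of any single region is known less closely, since 22 tags have a 95% exact Poisson interval of 13.8 to 33.3. The largest proportional gap was in the input. The median background was 2.44, 2.80 and 2.64 scaled tags in isolated regions and 3.82, 4.01 and 4.05 in neighboured regions within the same limits, a difference of -1.33 ± 0.109 tags. Values of single regions overlapped widely between the sets, with quartiles of the mean fold of 4.22 and 7.71 in isolated regions and 3.79 and 6.57 in neighboured regions within the same limits.

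**Figure D1:**
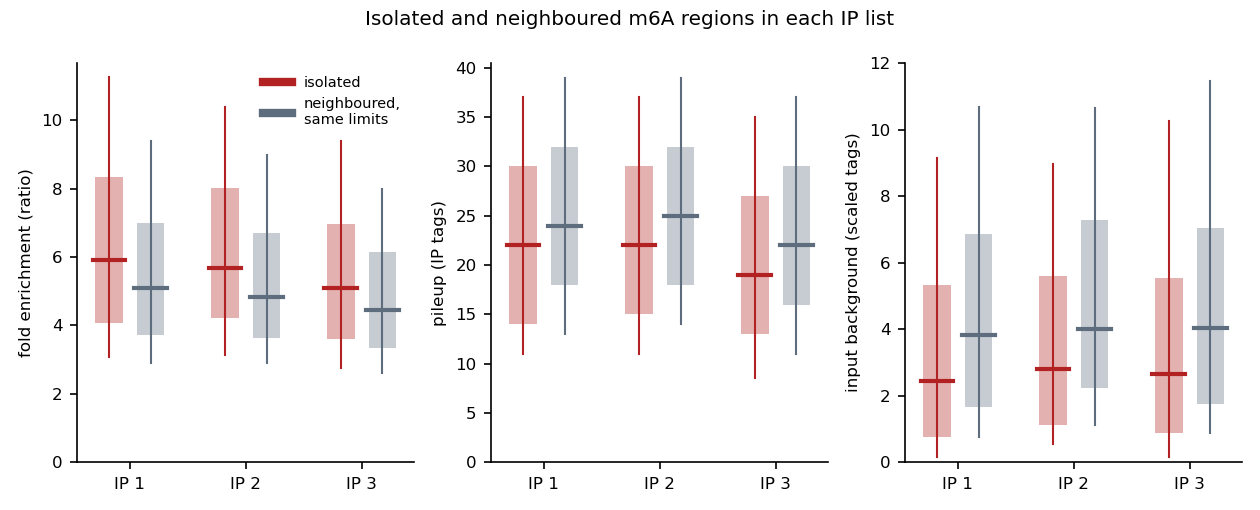
Fold enrichment, pileup and input background of the 707 isolated regions (red) and the 13211 neighboured regions within the same limits (grey) in m6A IP 1, 2 and 3. Thick lines are medians, boxes quartiles and thin lines the 10th to 90th percentiles; in every list the isolated median lies above the neighboured one for fold and below it for pileup and background.

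These differences depended on how weak members were treated. With a pileup above 10 required of isolated regions in every list, the difference in median mean fold from all neighboured regions was 0.347 in place of 0.760, the difference in background was -0.333 in place of -1.14 tags, and the difference in pileup was -0.667 in place of -3.33 tags. With that limit and the length limit on both sets, the fold difference was 0.634, the background difference -0.827 tags and the pileup difference -1.67 tags. Under the rule's own limits on both sets, they were 0.848, -1.17 tags and -3 tags. All of these are differences between medians of values averaged over lists. The 0.760 here, taken from all neighboured regions, is therefore another measure than the 0.760 given above for list medians. Leaving out m6A IP 2 gave a pileup difference of -1.50 in place of -3.33 tags and a background difference of -0.744 tags, and leaving out m6A IP 3 gave a pileup difference of -2.00 tags.

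Fold, pileup and background are tied by the formula of the fold, so regions of equal background differ in fold only through their pileup, and regions of equal pileup only through their background. The bands below describe the sets under that constraint. Among regions with a background above 2 and up to 4 tags, isolated regions had a median fold of 5.92, 5.69 and 5.09 in the 3 lists, and neighboured regions within the same limits had 5.67, 5.71 and 5.19. The difference was 0.038 ± 0.185, and isolated regions were higher in 1 list of 3. At backgrounds above 4 and up to 8 tags the difference was -0.00608 ± 0.245, and above 8 and up to 16 tags it was -0.0809 ± 0.0626. In the lowest bands, at most 1 tag and above 1 up to 2 tags, isolated regions were higher by 0.356 ± 0.213 and 0.400 ± 0.381, and they were higher in each list. The median pileups were not higher at backgrounds of at most 1 tag, at 13, 12 and 10 tags against 13, 14 and 11. Above 1 and up to 2 tags they were 19, 17 and 16 against 17, 17 and 16. A band spans a range of backgrounds, so the fold within it can also differ through the background. The median pileup at a background above 2 and up to 4 tags was the same in both sets, at 22, 22 and 20 tags. Bands of equal pileup gave these values. At a pileup above 10 and up to 15 tags the fold was 7.94, 7.61 and 6.38 in isolated regions and 6.33, 5.97 and 5.71 in neighboured ones, with backgrounds of 0.763, 0.784 and 0.881 against 1.34, 1.18 and 1.67 tags. At pileups above 15 and up to 20 tags the fold was 6.08, 5.96 and 5.49 in isolated regions against 5.78, 5.52 and 4.94, a difference of 0.431 ± 0.123, although the median backgrounds of 2.29, 2.24 and 2.64 tags were the same in both sets. At pileups above 20 and up to 25 tags the fold was higher in m6A IP 1 and 2 but lower in m6A IP 3, at 4.26 against 4.44. Above 25 and up to 30 tags it was higher in m6A IP 2 and 3 but lower in m6A IP 1, at 4.84 against 4.89. Above 30 and up to 40 tags it was higher in each list, at 4.58, 4.83 and 3.74 against 4.32, 4.30 and 3.57, a difference of 0.320 ± 0.188.

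**Figure D2:**
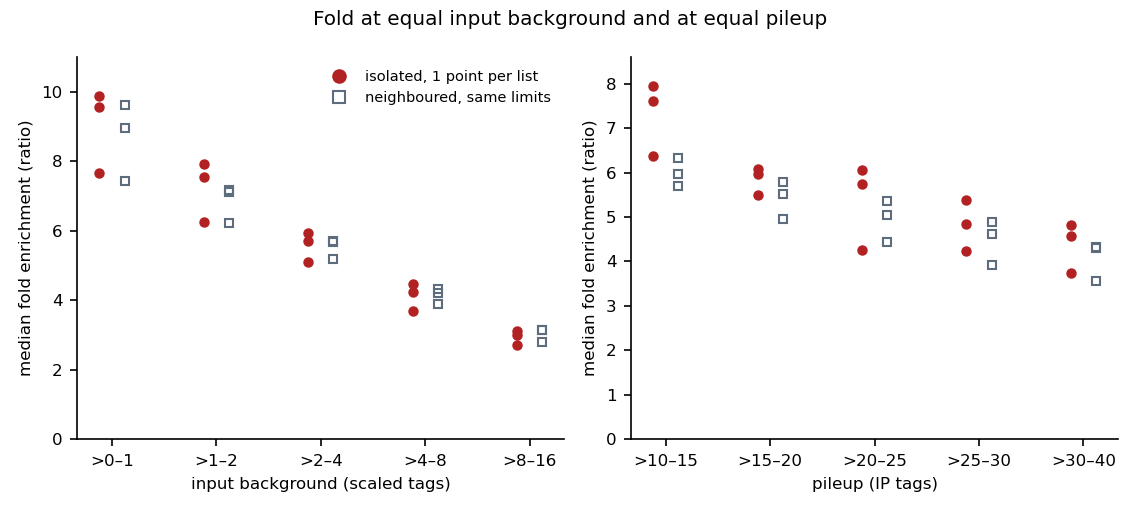
Median fold enrichment in bands of input background (left) and of pileup (right) for isolated regions (filled circles) and neighboured regions within the same limits (open squares), with 1 point for each list. Within bands of background the points of both sets overlap from 2 tags upward, and at pileups above 10 and up to 15 tags the isolated points lie above the neighboured ones.

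The source of the background also differed between the sets. The peak caller took the highest of the tags over the summit itself, the mean over 1000 bases, the mean over 10000 bases and the genome average. The value it chose could be read from the deposited fold and pileup of every peak, but some values fit more than 1 source. Such values were assigned to the genome average first, then to the summit, then to 1000 bases. The genome average, which applies where the surroundings hold almost no input tags, set the background of 10.04%, 4.81% and 8.63% of isolated regions in m6A IP 1, 2 and 3. In neighboured regions within the same limits it set 1.61%, 0.795% and 1.57%, so the shares differed by 6.502 ± 2.26 percentage points and did not overlap. The window of 1000 bases set the background of 14.003%, 12.9% and 17.3% of isolated regions against 22.7%, 19.9% and 24.1%. The window of 10000 bases set 0.943% ± 0.356 against 3.204% ± 0.388. For the remaining 76.5% ± 4.66 of isolated regions and 73.2% ± 2.91 of neighboured ones, the tags over the summit were the highest. The genome average was assigned in all 3 lists for 18 isolated regions (2.55%), for 0.903% of all neighboured regions and for 0.265% of those within the same limits. A mean background of at most 1 tag was found in 155 isolated regions (21.9%), where 13.4% of autosomal regions of all 3 lists had one. A mean background above 10 tags was found in 56 isolated regions (7.92%), where the share over autosomal regions of all 3 lists was 11.9%.

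Counts past fixed levels showed the same order of values. A mean fold of at least 10 was found in 58 isolated regions (8.204%, Wilson 95% interval 6.40 to 10.5), where 4.28% of autosomal regions of all 3 lists had one. In 16 isolated regions (2.26%) the fold was at least 10 in every list, where the share over autosomal regions was 1.16%. A mean fold under 3 occurred in 50 isolated regions (7.07%), against 8.42% over autosomal regions. A −log10 q of at least 10 in every list was reached by 103 isolated regions (14.6%, interval 12.2 to 17.4), against 12.2%, and a −log10 q of at least 20 in every list by 10 (1.41%), against 0.673%. These levels come from the contrast that chose the members, and nothing is read from the shares beyond their values. Intervals cover counting error only.

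The gap to the nearest region ran from 50050 to 1711686 bases, with a median of 89053. The nearest region was farther than 100000 bases for 312 members, farther than 200000 for 123, farther than 500000 for 26 and farther than 1000000 for 2. The larger of the gaps on either side had a median of 237240 bases over the 704 members with a region on both sides. It was 2.06 times the smaller gap at the median, and at least 3 times the smaller gap in 229 of the 704. The nearest region was found in all 3 lists for 238 members (33.7%), in 2 lists for 158 (22.3%) and in 1 list for 311 (44.0%). Over all autosomal regions these shares were 38.8%, 22.5% and 38.7%.

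The background was lower at longer distances, from gaps above 5000 bases, and the fold was higher without an even course. The values are for autosomal regions of all 3 lists within the length and pileup limits. Where the nearest region was at most 1000 bases away (7813 regions), the median background was 4.22 ± 0.354 tags. It was no lower from 1000 to 5000 bases, at 4.23 ± 0.364 tags (2298 regions). It was 3.75 ± 0.207 tags from 5000 to 20000 bases (2141 regions) and 3.22 ± 0.157 tags from 20000 to 50000 bases (959 regions). At longer gaps it was 2.72 ± 0.0802 tags from 50000 to 100000 bases (395 regions), 2.58 ± 0.262 from 100000 to 200000 (189 regions) and 2.44 ± 0.200 beyond (123 regions). The median fold was 4.72 ± 0.326 at the shortest gaps, 4.71 ± 0.278 from 1000 to 5000 bases, 4.99 ± 0.285 from 5000 to 20000 and 5.26 ± 0.373 from 20000 to 50000 bases. It was 5.58 ± 0.494 from 50000 to 100000 bases, 5.41 ± 0.401 from 100000 to 200000 and 5.66 ± 0.307 beyond. Within the isolated regions themselves the mean fold and the mean background showed almost no relation to the gap. Spearman's rho across the 707 members was -0.00392 for the mean fold, -0.00273 for the mean background and -0.0145 for the mean pileup. These are given as a description because members share libraries.

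**Figure D3:**
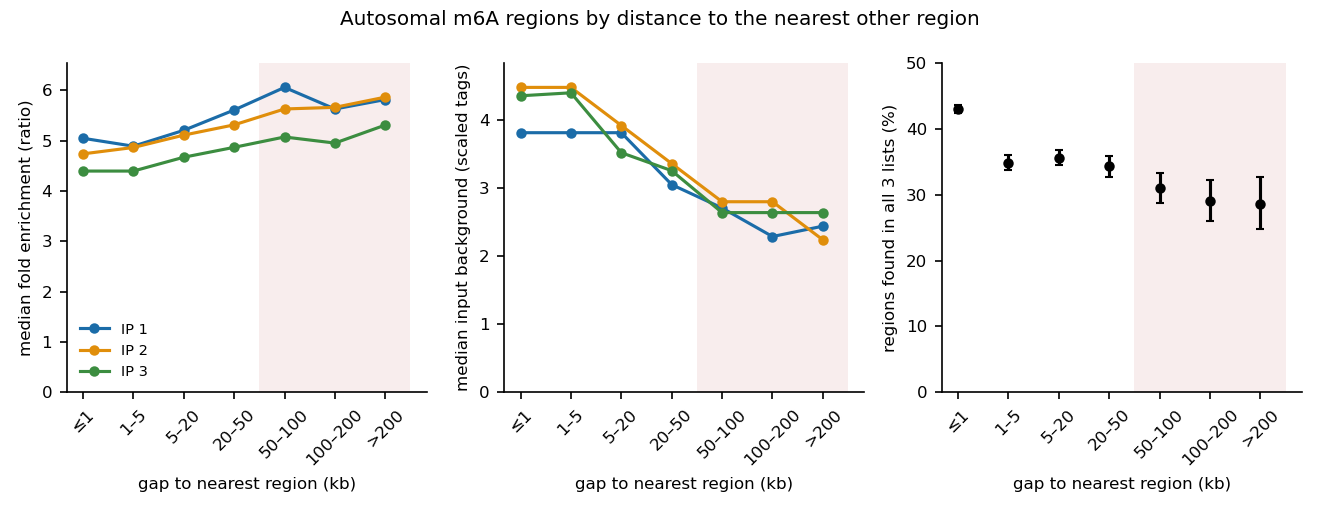
Median fold enrichment (left) and median input background (middle) in each list, and the share of regions found in all 3 lists with its Wilson 95% interval (right), by the gap to the nearest region of any list on a stepped scale in kb. The shaded steps are gaps above 50 kb, where the background is lowest in every list and the share found in all 3 lists is 31.0% or less; the left and middle panels use regions of all 3 lists within the length and pileup limits, the right panel all autosomal regions.

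A smaller share of isolated segments than of segments with a neighbour was found in all 3 lists. Of 2831 autosomal regions of any list with no other region within 50000 bases, 850 (30.02%, Wilson 95% interval 28.4 to 31.7) held a peak of each list, against 15498 of 39304 with a neighbour (39.4%, interval 38.9 to 39.9). Over all autosomal regions the share was 38.8%. Seen from each list, 44.9%, 45.6% and 60.8% of the isolated regions of m6A IP 1, 2 and 3 were found in all 3, against 53.3%, 53.5% and 73.4% of neighboured regions, a difference of -9.68 ± 2.59 percentage points. Over pooled lists the difference was -9.41 points. It was -1.28 points when only peaks reaching a −log10 q of 10 were used, and 0.922 points in the other direction when peaks had to overlap by at least 50% of each. Isolated regions of a single list were weak, with a median pileup of 7 tags and a median background of 0.229 tags in 1353 regions, while the 14963 neighboured regions of a single list had medians of 12 and 1.53 tags. Leaving out m6A IP 3 raised the number of isolated regions from 707 to 1065, and leaving out m6A IP 1 or 2 raised it to 923 or 872. In each case only both remaining lists were required, and peaks of the list left out no longer counted as neighbours.

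Summits of the 3 lists lay closer together in isolated regions. The rule did not use the position of the summit within the peak, although it shares the peaks with the rule. The median distance between the outermost of the 3 summits was 15 bases in isolated regions, 21 in neighboured regions within the same limits and 23 in all neighboured regions. Between any 2 lists it was 7 bases in isolated regions, against 9, 10 and 10 bases for m6A IP 1 and 2, 1 and 3, and 2 and 3 in neighboured regions within the same limits. All 3 summits fell within 10 bases in 282 isolated regions (39.9%, Wilson 95% interval 36.3 to 43.5) and in 33.1% (32.3 to 33.9) of neighboured ones within the same limits, while all 3 fell on the same base in 10 isolated regions (1.41%) and in 1.55% of neighboured ones within the same limits. Isolated regions were also shorter, with a median of 155 against 175 bases, and length moved with the spread of the summits. In isolated against neighboured regions within the same limits the spread was 9 against 8 bases at lengths under 100 bases, 11 against 17 from 100 to under 150 and 22 against 24 from 150 to under 200. It was 26 against 29 bases from 200 to under 300 and 29 against 42 from 300 to under 400. Isolated regions held a single peak of each list in 91.9% of cases, and neighboured regions within the same limits also in 91.9%.

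The fold of an isolated region varied between lists with a median coefficient of variation of 23.0%, against 20.9% in neighboured regions within the same limits, and an upper quartile of 33.0% against 30.6%. The rule asks for a pileup above 10 in only 1 list, and 144 members (20.4%) did not reach it in every list, against 9.54% of neighboured regions within the same limits. Among regions that did, the medians were 22.6% and 20.5%. The fold was lowest in m6A IP 3 for 349 of the 707 members (49.4%) and highest there for 131 (18.5%). In neighboured regions within the same limits the shares were 48.2% and 21.2%. Across members, Spearman's rho between lists was 0.607 to 0.621 for the fold and 0.918 to 0.930 for the pileup.

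The 10 isolated regions with the highest mean percentile of fold stood over an almost empty input, with mean backgrounds of 0.165 to 0.922 tags. The region with the highest percentile, 333 bases on chromosome 3 (chr3:145421758-145422090), had 23 tags in each list, and folds of 20.8, 19.6 and 17.7. Its next regions lay 106267 and 101308 bases away. A region of 193 bases on chromosome 16 (chr16:49699436-49699628) had pileups of 23, 27 and 22 tags and folds of 17.9, 17.9 and 17.0. Its SD of 0.519 was the smallest of the 10, and that of the chromosome 3 region was 1.56.

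On chromosome 4 (chr4:53388393-53388504) the background was the genome average in all 3 lists, and pileups of 22, 24 and 15 tags gave folds of 19.97, 21.3 and 13.7. A region on chromosome 18 (chr18:21458414-21458565) had folds of 20.8, 17.3 and 12.8. In both, m6A IP 3 was the lowest list in fold and in pileup. The region with the highest mean pileup among the 10, on chromosome 1 (chr1:157264301-157264491), had pileups of 27, 30 and 31 tags over backgrounds of 0.763, 1.12 and 0.881 tags, with folds of 15.9, 14.6 and 17.0 and all summits within 1 base. Here m6A IP 3 was the highest list.

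Chromosome 5 held 3 of the 10. A region of 195 bases (chr5:90794699-90794893) had folds of 14.2, 16.03 and 15.5. A region of 85 bases (chr5:51051826-51051910) was the most remote of the 10, with 699247 and 797395 bases to the next regions, and had folds of 18.2, 16.02 and 10.6. The last of them (chr5:46030367-46030581) had folds of 11.5, 20.8 and 11.5 on 14, 25 and 13 tags, with m6A IP 2 well above the other lists in both. The other two were on chromosome 2 (chr2:52717057-52717285), with folds of 11.9, 16.02 and 12.9, and on chromosome 1 (chr1:121733694-121734085), with folds of 11.3, 14.5 and 16.05.

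**Figure D4:**
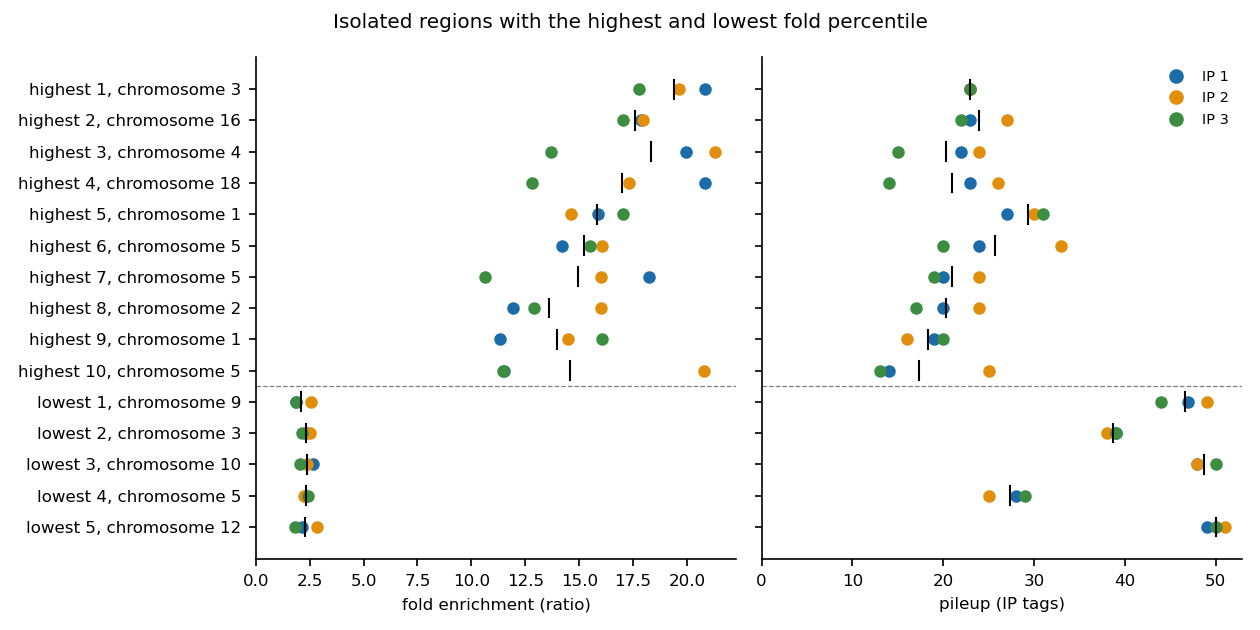
Fold enrichment (left) and pileup in IP tags (right) of the 10 isolated regions with the highest and the 5 with the lowest mean percentile of fold, with 1 point for each list and a bar at the mean. The 10 highest lie at folds of 10.6 or more in every list, on pileups of 13 to 33 tags, while the 5 lowest lie at folds under 3 on pileups of 25 to 51 tags.

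Of the 5 isolated regions with the lowest percentile of fold, 4 had more tags in every list than any of the 10 with the highest. On chromosome 9 (chr9:61762202-61762290) pileups of 47, 49 and 44 tags stood over backgrounds of 24.4, 18.5 and 22.9 tags and gave folds of 1.89, 2.57 and 1.88. On chromosome 3 (chr3:86475719-86475862) the folds were 2.35, 2.51 and 2.15, on chromosome 10 (chr10:28749961-28750102) 2.64, 2.38 and 2.06, on chromosome 5 (chr5:22779290-22779383) 2.33, 2.23 and 2.41, and on chromosome 12 (chr12:10906952-10907043) 2.16, 2.83 and 1.80, the last tied with a region on chromosome 3 described below. In all 5 the tags over the summit set the background in every list.

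The region with the highest mean pileup, 276 bases on chromosome 18 (chr18:25912309-25912584), combined many tags with a high fold. Its pileups were 60, 61 and 61 tags over backgrounds of 5.80, 6.19 and 6.34 tags, and its folds were 8.97, 8.62 and 8.45. The nearest region on one side was 73731 bases away and on the other 1440008 bases. The other 4 regions with the highest pileup had 48 to 51 tags in every list, and folds of 1.80 to 2.83. With at most 1 tag kept per position and tags extended to 50 bases, the tags of 1 strand cannot exceed 50 at any base. Whether this limit held down the pileups of those 4 regions was not tested. In 4 isolated regions the pileup passed 50 tags in any list (0.566%), against 0.746% of autosomal regions of all 3 lists.

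Some isolated regions carried the same values as a region elsewhere in the genome. The region on chromosome 12 named above and a region of the same length on chromosome 3 (chr3:57908074-57908165) both had pileups of 49, 51 and 50 tags, backgrounds of 22.1, 17.4 and 27.3 tags and folds of 2.16, 2.83 and 1.80. Peak length and the position of the summit in the peak were also the same in each list. A region on chromosome 13 (chr13:13324885-13325191), with pileups of 50, 51 and 50 tags and folds of 2.75, 2.59 and 1.86, shared its pileups and backgrounds with regions on chromosome 4 (chr4:69910130-69910437) and chromosome 12 (chr12:21422704-21422978). The region on chromosome 10 shared its pileups of 48, 48 and 50 tags and its backgrounds with one on chromosome 19 (chr19:16341906-16342079). Thus the 4 isolated regions with 48 to 51 tags in every list each had a match. This was noticed after the values were seen, and the regions outside the named set were chosen for it.

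The match was then counted over all regions with at least 20 tags in every list. Pileup and background were the same in all 3 lists, to 3 decimals, as in another region for 12 of 328 isolated regions (3.66%, Wilson 95% interval 2.11 to 6.28) and for 78 of 7560 neighboured regions within the same limits (1.03%, 0.828 to 1.29). The 12 form 9 sets of matching regions, 3 of which hold the 4 regions that prompted the count. Without those 3 sets the counts were 8 of 324 (2.47%, 1.26 to 4.80) and 75 of 7557 (0.992%, 0.793 to 1.24), and members of 1 set are not independent. With every set included, at a mean background above 10 tags the counts were 5 of 56 (8.93%, 3.87 to 19.3) and 29 of 1574 (1.84%, 1.29 to 2.63). Those 5 include the 4 regions that prompted the count. Above 5 and up to 10 tags the counts were 7 of 136 (5.15%, 2.52 to 10.2) and 36 of 3537 (1.02%, 0.736 to 1.41). Up to 5 tags they were 0 of 136 and 13 of 2449. By a match of peak length, pileup and summit position in at least 2 lists, in either orientation and without a limit on tags, the shares were 7 of 707 (0.990%) and 94 of 13211 (0.712%), within the interval of the former. No source used here says how tags that align to more than 1 place were counted, and whether matching regions hold the same tags was not tested. Without the 15 members and all other regions that matched by either measure, the difference in median mean fold was 0.802 in place of 0.760.

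Other isolated regions differed strongly in fold between lists. On chromosome 17 (chr17:51318431-51318579) pileups of 26, 22 and 23 tags gave folds of 23.4, 3.48 and 5.31, over backgrounds of 0.152, 5.60 and 3.52 tags. On chromosome 13 (chr13:101603126-101603323) the folds were 3.23, 18.7 and 7.44 at pileups of 17, 21 and 13 tags, and on chromosome 6 (chr6:77929429-77929561), where the 3 summits fell on the same base, they were 5.81, 15.6 and 4.14 at 27, 32 and 25 tags. At the other end, the folds were 5.80, 5.84 and 5.79 on chromosome 13 (chr13:12278582-12278665), 8.45, 8.62 and 8.50 on chromosome 1 (chr1:129101666-129101784), and 2.87, 2.83 and 2.91 on chromosome 2 (chr2:37063254-37063347).

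The most remote isolated region lay on chromosome 17 (chr17:93348509-93348708), with 1711686 and 1864065 bases to the next regions. Its pileups were 21, 19 and 17 tags and its folds 3.47, 3.03 and 3.33, below the median of isolated regions in every list. Next came chromosome 15 (chr15:69894610-69894700), 1034302 bases from any region, with folds of 2.56, 2.76 and 2.25, and chromosome 7 (chr7:62091057-62091169), 941670 bases away, with folds of 4.41, 3.81 and 4.42. The other two of the 5 most remote were on chromosome 16 (chr16:68511700-68511936), with folds of 10.3, 8.97 and 8.55 on 12, 13 and 9 tags, and on chromosome 14 (chr14:36393758-36394003), with folds of 6.45, 3.83 and 4.10 on 35, 35 and 32 tags. Remote regions were therefore found at both low and high folds.

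Chromosomes differed in the share of their recurrent regions that were isolated. The share was 4.55% ± 1.55 (SD over 19 autosomes), lowest on chromosome 17 with 14 of 841 (1.66%, Wilson 95% interval 0.994 to 2.77) and chromosome 11 with 33 of 1398 (2.36%, 1.69 to 3.30). It was highest on chromosome 3 with 55 of 769 (7.15%, 5.54 to 9.19), chromosome 13 with 38 of 546 (6.96%, 5.11 to 9.41), chromosome 1 with 64 of 968 (6.61%, 5.21 to 8.35) and chromosome 6 with 52 of 787 (6.61%, 5.07 to 8.56). Over all autosomal regions of the 3 lists, 5.20% had no neighbour within 50000 bases before the limits on length and pileup. With a distance of 20000 bases, chromosome 17 (6.30%) and chromosome 11 (7.37%) had the lowest shares, and with 100000 bases chromosome 11 (0.644%) and chromosome 17 (0.713%) did. The upper end changed its order: with 20000 bases chromosome 6 (14.9%) and chromosome 1 (14.7%) were highest, above chromosome 3 (13.004%) and chromosome 13 (12.5%), and with 100000 bases chromosome 3 (4.42%) and chromosome 1 (3.51%) were highest and chromosome 13 had 2.56%. Across the 19 autosomes, Spearman's rho between the share and the number of recurrent regions was -0.482, a description in which the number is also the denominator of the share.

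**Figure D5:**
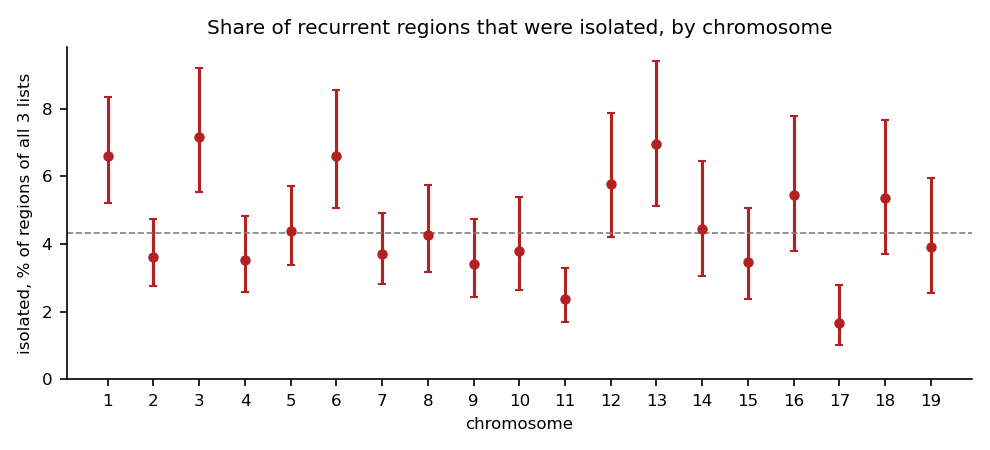
Isolated regions as a percentage of the regions of all 3 lists on each autosome, with Wilson 95% intervals and a dashed line at the pooled share of 4.32%. Chromosomes 17 and 11 lie lowest, at 1.66% and 2.36%, and chromosomes 3 and 13 highest, at 7.15% and 6.96%.

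The regions nearest to each limit of the rule had these values. Just inside the distance limit, gaps of 50050, 50056 and 50079 bases came with mean folds of 3.30, 3.21 and 3.57, and just outside it gaps of 49906, 49870 and 49859 bases came with 4.26, 3.75 and 6.06. The longest members measured 396, 393 and 392 bases, with mean folds of 8.36, 4.76 and 13.96, and the shortest isolated regions past that limit measured 400, 403 and 404 bases, with 4.51, 4.34 and 6.18. The member of 393 bases (chr6:100182004-100182396) and the excluded region of 400 bases (chr13:66109121-66109520) were themselves a match of peak length, pileup and summit position in mirror orientation. Both had pileups of 32, 30 and 29 tags. Their backgrounds were the same in m6A IP 1 and 3 but 3.95 and 4.62 tags in m6A IP 2, where the folds were 6.26 and 5.51. The 3 members with the fewest tags had a highest pileup of 11 tags and mean folds of 6.85, 5.40 and 6.51, and the first 3 excluded for their pileup had a highest of 10 tags and mean folds of 7.43, 5.87 and 7.31. In all, 59 isolated regions of the 3 lists were excluded for length and 84 for pileup, with median mean folds of 5.66 and 5.87 against 5.82 in the members. On the X chromosome 41 regions met the other limits and were left out.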

How the data were processed

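Per the file headers, the authors ran MACS 2.1.0.20151222 on each replicate alone: IP against 1 input, q-value cutoff 0.05, effective genome size 1.87e+09 bases, tags extended to 50 bases without a model, at most 1 tag per position, the larger library scaled to the smaller, and local background over 1000 and 10000 bases. The submitters' processing notes name TopHat2 2.1.0, MACS2 2.1.0 and mm9. No source used here gives the alignment settings. The deposited pileup is a coverage signal in IP tags. The deposited fold enrichment is the authors' ratio, and −log10 p-values and −log10 q-values were deposited per peak.

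Background was recovered as (pileup + 1) / fold - 1. Recomputed Poisson −log10 p-values lay within 6.71e-05 of the deposited ones. Each background fitted whole input tags over the summit, 1000 or 10000 bases (within 0.002, 0.02 and 0.1 tags) or the genome average (within 0.001). Some fitted more than 1 of these, so the source assigned is not certain for every peak. Per list, a region took the values of its highest peak by pileup. Gaps are the bases between regions. Coordinates are 1-based on mm9; the annotation at hand was GRCm38, so none was compared. Members and comparisons were chosen with earlier results of these data known. Regions named were, among isolated ones, the 10 highest and 5 lowest by mean percentile of fold, the 5 highest by mean pileup, the 5 most remote, the 3 least and 3 most variable in fold, and the 3 on either side of each limit. Bands, distance steps, background windows, runs and matching regions were chosen after seeing the data. Shares carry Wilson and pileups exact Poisson 95% intervals. Merging and isolation were tested on simulated data. Alternatives changed distance, neighbours, peak threshold, overlap, pileup, length and comparison set, and left out each replicate. Scripts ran under Python 3.11.15 with pandas 2.3.3, numpy 2.4.6, matplotlib 3.10.9 and scipy 1.17.1.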

Additional observations from a re-analysis of the deposited data

How the results depend on the processing

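The fold difference was positive, and the differences in pileup, background and summit spread were negative, under every alternative run on them. The number of isolated regions was 1666 and 312 with distances of 20000 and 100000 bases, 2432 and 1371 with only regions of all 3 or at least 2 lists as neighbours, 455 at a −log10 q of at least 10, and 872 to 1065 leaving out a replicate. At a −log10 q of at least 3 and 10, the median mean fold was 6.36 and 8.88. The fold difference was 0.566 with neighbours of all 3 lists, 1.13 at a −log10 q of at least 10, 0.347 with a pileup above 10 in every list, and 0.586 to 0.692 leaving out a replicate. The background difference was -1.33 tags at 100000 bases, -1.27 with neighbours of at least 2 lists, -1.64 with no pileup minimum, -0.757 at a −log10 q of at least 10, -0.333 with a pileup above 10 in every list, -0.827 with that limit on both sets, and -1.04 to -0.744 leaving out a replicate. The pileup difference was -2.67 tags at 20000 bases and with no length limit, -5.0 with no pileup minimum, -2.0 at a −log10 q of at least 10, -0.667 with a pileup above 10 in every list, -1.67 with that limit on both sets, and -2.50 to -1.50 leaving out a replicate. The summit difference of -8 bases was -7 at 20000 and at 100000 bases, at a −log10 q of at least 3 and with a 50% overlap, -6 with neighbours of at least 2 lists, with no pileup minimum, with equal limits and with a pileup above 10 in both sets, -5 with neighbours of all 3 lists, -6.5 with no length limit, -9 with a pileup above 10 in every list, -3 at a −log10 q of at least 10, and -4 to -3 with 2 lists, which span less than 3. The recurrence difference was -7.57 points at 20000 bases, -1.28 at a −log10 q of at least 10, and 0.922 with a 50% overlap, where peaks overlapping by less count as neighbouring regions by construction; leaving out a replicate gave -10.3 to -9.10. The causes of the other shifts were not tested. No paired analysis was possible because the lists analysed here hold no separate values of the input libraries, so no IP sample could be set against an input sample; differences between sets of regions were taken within each list and then averaged where an SD over lists is given. Limits on pileup, length and comparison set do not enter the recurrence share. Pileups of about 20 tags limit the precision of any single region.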

Other observations

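Isolated regions sometimes followed one another along a chromosome. Counting regions of any list, 296 of the 707 members had a neighbour on each side that was not itself isolated, and 12 runs of consecutive isolated regions held at least 3 members. The run with the most members lay on chromosome 13 from 12278582 to 13325191, with 8 isolated regions, 6 of them members, in 1046610 bases. Of these 6, the first 5 had pileups of 8 to 21 tags and mean folds of 4.53 to 9.65, and the last was the region with 50, 51 and 50 tags that matched regions on chromosomes 4 and 12.

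A run on chromosome 12 from 23040796 to 25266534 held 4 members at very different folds. Its outer members had mean folds of 7.47 (chr12:23040796-23040877) and 15.5 (chr12:25178387-25178528). Between them lay a pair of members with the same pileups of 39, 37 and 33 tags in m6A IP 1, 2 and 3 (chr12:23441847-23441943 and chr12:24588083-24588190). Their backgrounds were the same in m6A IP 2 and 3, at 15.1 and 15.9 tags, and differed in m6A IP 1, at 13.0 and 12.2 tags. When a match required the same pileup in all 3 lists but the same background in only 2, the share of regions with a match was 27 of 328 isolated regions (8.23%, Wilson 95% interval 5.72 to 11.7) and 336 of 7560 neighboured regions within the same limits (4.44%, 4.003 to 4.93). Some members matched each other in pileup and background in all 3 lists. One such pair lay on chromosomes 3 and 13 (chr3:68112918-68113092 and chr13:53621069-53621257), both with 32, 34 and 26 tags. Another lay on chromosome 3 (chr3:45579538-45579667 and chr3:53661475-53661645), both with 37, 37 and 36 tags. The lengths differed, at 175 and 189 bases in the first pair and 130 and 171 in the second. Neither pair matched by peak length, pileup and summit position. How often unrelated regions share such values was not tested. These regions were named after their values were seen, and whether the same tags stand behind them was not tested.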
